A study of Mus musculus with 2 samples.

Results

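Long intergenic noncoding RNA (lincRNA) genes were examined at their 5' ends in mouse kidney chromatin. The genes were those of type lincRNA in the GENCODE M21 annotation whose 5' end lay more than 2 kb from every transcript start of a protein-coding gene. Of 5854 lincRNA genes on the 19 autosomes, X and Y, 5371 met this rule and are called distant lincRNA genes here, out of 55413 annotated genes of all types. The other 483 lincRNA genes lay within 2 kb of a coding start, where a peak can belong to either gene. Chromatin was read by DNase-seq, in which the enzyme DNase I cuts nuclear DNA where it is not wrapped or covered by protein. The study held 1 group of 2 libraries, both from whole kidney of male B6CASTF1/J mice of 25 days, which are hybrids of the C57BL/6J and CAST/EiJ strains. There was no treated or control group, so comparisons are between gene classes within each library and between the libraries, and no test between conditions exists. The labels give the libraries different biosamples and replicate numbers but the same donor code. A 5' end is called open where a deposited peak overlapped the 500 bp on either side of it in both libraries. The peaks of the 2 libraries need not overlap each other.

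Long noncoding RNA genes are mostly transcribed by RNA polymerase II from promoters of their own, and many of their transcripts are spliced and polyadenylated like messenger RNA. An active promoter is kept free of nucleosomes just upstream of the transcription start, which makes it sensitive to DNase I, and proteins bound within the sensitive stretch leave short protected gaps, called footprints. Most long noncoding RNAs are known to be made in fewer tissues and at lower levels than messenger RNAs, while some, among them Malat1 and Neat1, are made in nearly all cell types.

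The sequences under the highest peak are shown for 8 genes on which the later results turn. By the geometric mean of the heights in both libraries, Gm15408 has the highest peak after that of the ribosomal RNA-related Gm42418. Neat1 and Malat1 are broadly transcribed lncRNAs, and Dubr is another lncRNA with a given name. Snhg12 and Snhg6 are hosts of small nucleolar RNAs. Gm20443 and 4930478P22Rik have high peaks with few CpG dinucleotides. Sequence is from the RefSeq copy of GRCm38.p6, on which mm10 is based, and is that of C57BL/6J only. Each is written 5' to 3' on the strand of the gene, over the peak of replicate 2 or its central 200 bp, and capitals mark bases inside a footprint of both libraries.
Gm15408, chr5:149006801-149006960, plus strand: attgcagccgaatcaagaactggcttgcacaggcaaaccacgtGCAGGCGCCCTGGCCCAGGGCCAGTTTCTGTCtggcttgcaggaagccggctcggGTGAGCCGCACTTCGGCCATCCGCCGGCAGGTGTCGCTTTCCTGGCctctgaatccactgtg
Neat1, chr19:5845811-5846010, minus strand: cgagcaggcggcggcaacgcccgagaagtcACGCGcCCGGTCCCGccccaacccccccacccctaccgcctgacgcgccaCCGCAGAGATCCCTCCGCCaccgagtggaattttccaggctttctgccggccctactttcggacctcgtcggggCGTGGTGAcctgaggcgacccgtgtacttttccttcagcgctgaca
Malat1, chr19:5802601-5802760, minus strand: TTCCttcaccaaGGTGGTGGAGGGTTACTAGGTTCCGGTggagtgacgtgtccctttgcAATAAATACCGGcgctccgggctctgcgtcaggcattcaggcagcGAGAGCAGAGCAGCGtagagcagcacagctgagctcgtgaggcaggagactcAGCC
Dubr, chr16:50732721-50732900, minus strand: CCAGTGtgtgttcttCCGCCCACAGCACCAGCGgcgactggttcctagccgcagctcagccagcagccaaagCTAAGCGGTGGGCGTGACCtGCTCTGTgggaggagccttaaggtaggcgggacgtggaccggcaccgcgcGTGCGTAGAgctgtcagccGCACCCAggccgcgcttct
Snhg12, chr4:132308541-132308700, plus strand: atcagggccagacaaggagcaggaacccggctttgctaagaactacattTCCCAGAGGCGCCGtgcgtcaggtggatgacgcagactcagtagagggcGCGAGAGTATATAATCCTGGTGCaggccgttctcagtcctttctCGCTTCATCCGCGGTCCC
Snhg6, chr1:9944081-9944260, minus strand: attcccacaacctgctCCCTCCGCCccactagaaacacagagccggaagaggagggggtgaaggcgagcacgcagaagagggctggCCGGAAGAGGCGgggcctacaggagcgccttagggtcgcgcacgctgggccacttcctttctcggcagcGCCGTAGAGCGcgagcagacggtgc
Gm20443, chr17:35739761-35739940, minus strand: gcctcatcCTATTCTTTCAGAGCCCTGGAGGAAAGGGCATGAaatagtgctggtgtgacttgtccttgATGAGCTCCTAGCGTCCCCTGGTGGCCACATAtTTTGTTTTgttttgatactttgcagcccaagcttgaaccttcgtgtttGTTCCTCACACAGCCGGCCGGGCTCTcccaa
4930478P22Rik, chr5:35361961-35362120, plus strand: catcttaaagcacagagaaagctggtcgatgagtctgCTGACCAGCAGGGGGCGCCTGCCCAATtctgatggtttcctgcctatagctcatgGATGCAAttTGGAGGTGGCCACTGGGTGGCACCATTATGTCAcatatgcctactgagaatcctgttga

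Of the 5371 distant lincRNA genes, 809 (15.1%, exact 95% interval 14.1 to 16.0%) were open, against 13510 of 21938 protein-coding genes (61.6%) and 32.1% of annotated genes of any type. Replicate 1 had a peak at 868 of the lincRNA 5' ends (16.2%) and replicate 2 at 1081 (20.1%), and 4231 had none in either library. The share was above that of sites nearby. The same windows moved 10 kb upstream were open for 4.93% of the genes and 10 kb downstream for 5.81%, and 4.29% of 1 kb windows tiled along the genome held a peak in both libraries. The intervals on all these shares treat genes or windows as independent and cover counting error only.

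Other noncoding classes far from coding starts had low shares as well. Antisense genes under the same distance rule were open in 298 of 1694 cases (17.6%, 15.8 to 19.5%), an interval that overlaps that of the lincRNA genes. The TEC class, which holds provisional gene models, was open in 213 of 2793 cases (7.63%), and processed pseudogenes, copies of messenger RNAs pasted back into the genome, in 271 of 9635 (2.81%). LincRNA genes within 2 kb of a coding start were open in 315 of 483 cases (65.2%, 60.8 to 69.5%), close to the share of protein-coding genes.

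**Figure D1:**
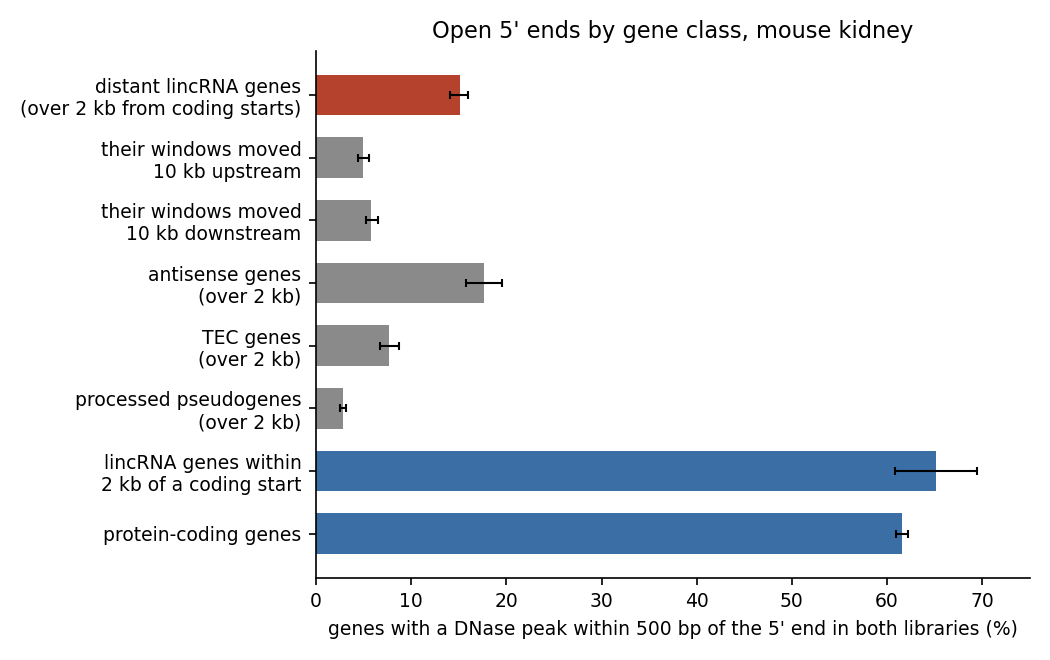
Horizontal bars give the percentage of genes in each class with a peak within 500 bp of the 5' end in both libraries, and lines give exact 95% binomial intervals over genes. Distant lincRNA genes (15.1%) lie above their own windows moved by 10 kb (4.93 and 5.81%) and below protein-coding genes (61.6%).

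The peaks gathered at the annotated 5' ends. In the 250 bp just upstream of the 5' end there were 80.2 peak midpoints per 1000 distant lincRNA genes in replicate 1 and 103 in replicate 2. That was 5.51 and 4.96 times the mean per bin between 5 and 10 kb away, which was 14.6 in replicate 1 and 20.7 in replicate 2. For protein-coding genes the same bin held 20.3 and 15.4 times as many peaks as its flanks. The midpoint of the highest peak of an open lincRNA gene lay at a median of -44.0 bp from the 5' end in replicate 1 and -46.5 bp in replicate 2, that is upstream. Of the 809 open lincRNA genes, 41.3% in replicate 1 and 41.0% in replicate 2 had this midpoint within 100 bp of the 5' end, against 64.2% and 62.6% of open protein-coding genes.

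**Figure D2:**
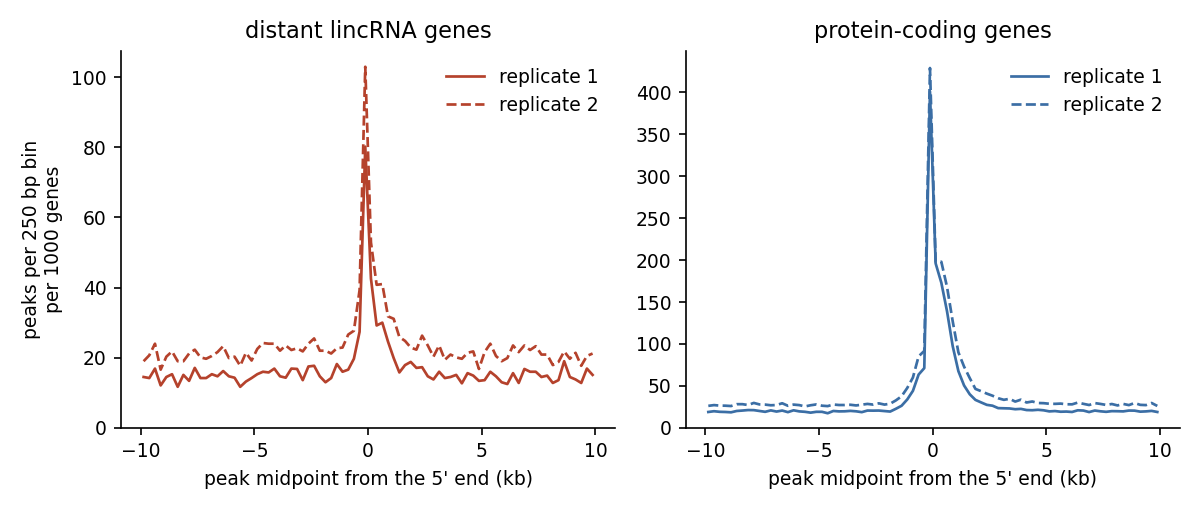
Lines give the number of peak midpoints per 250 bp bin per 1000 genes against distance from the 5' end, with downstream positive, for distant lincRNA genes (left) and protein-coding genes (right, on a taller axis). In both libraries the fullest bin is the one from -250 to 0 bp, at 80.2 and 103 for distant lincRNA genes and 401 and 429 for protein-coding genes.

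Where a lincRNA 5' end was open, its peak was usually low. The highest peak in the window had a median height of 1.21 in replicate 1 and 1.46 in replicate 2 at the 809 open lincRNA genes, in the deposited height units, against 7.33 and 6.91 at open protein-coding genes. The mean of the library medians for the lincRNA genes was 1.34 ± 0.175 (SD, n = 2). The middle 50% of the lincRNA heights ran from 0.632 to 2.97 in replicate 1 and from 0.730 to 3.71 in replicate 2. A height over 8 was reached at 70 lincRNA genes (8.65%) in replicate 1 and 74 (9.15%) in replicate 2, against 46.5% and 44.5% of open protein-coding genes. Among all peaks of its library, the median open lincRNA gene stood at the 61.5th height percentile in replicate 1 and the 72.3rd in replicate 2. All peaks include those called in 1 library only. Among windows moved 10 kb, the open ones had medians of 1.20 and 1.51 downstream and 0.983 and 1.23 upstream. Genome windows of 1 kb with a peak in both libraries had 1.06 and 1.31. Neither set of windows was held away from coding starts, so both can include coding promoters. Peaks of both libraries over 2 kb from every annotated start, counted singly, had medians of 0.838 in replicate 1 and 1.05 in replicate 2. The lincRNA peaks were thus low for promoters and near those of other windows open in both libraries. Their medians were above those of the peaks far from annotated starts. In whole tissue, a site open in few cells and a site weakly open in many cannot be told apart.

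The libraries ranked the open lincRNA genes alike. Across the 809 genes Spearman's rho between the libraries was 0.945 and Pearson's r of the log2 heights was 0.950, given as a description since genes of the same pair of libraries are not replicates. The log2 ratio of replicate 2 to replicate 1 had a median of 0.17 and an SD of 0.50, and 775 genes (95.8%) lay within 2-fold of that median. The gene farthest from it, picked after its values were seen, was Gm4211 at 3.89 in replicate 2 and 0.479 in replicate 1, with 8 footprints in replicate 2 and 0 in replicate 1. In the other direction the widest gap was at Gm1720, with 0.373 in replicate 2 and 0.932 in replicate 1. Another 272 genes had a peak only in replicate 2, which had the longer peak list, at a median height of 0.368, and 59 only in replicate 1, at a median of 0.333. The highest of these were Gm26751 at 2.34 in replicate 2, and Gm12951 at 3.38 and AC138457.1 at 3.37 in replicate 1, the last being 16.2 kb from the kidney developmental gene Pax2.

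**Figure D3:**
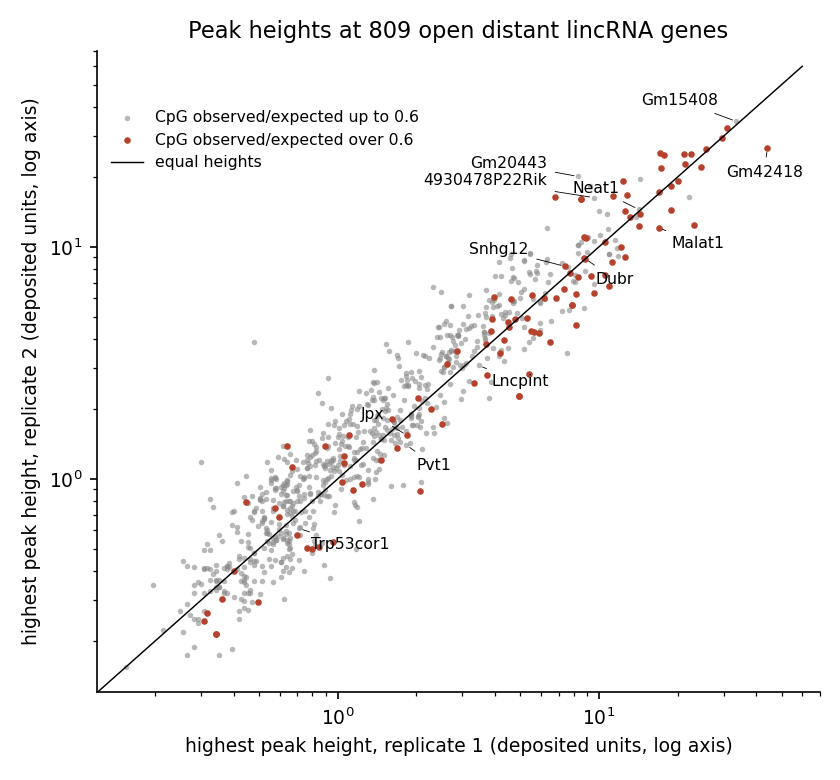
Each point is 1 of the 809 open distant lincRNA genes, with the height of its highest peak in replicate 1 across and in replicate 2 up, both on log axes, and the line marks equal heights. Genes with CpG observed over expected above 0.6 (red) are frequent at the top, and Gm20443 and 4930478P22Rik are high with a low CpG value.

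The highest peaks, ranked by the geometric mean of the heights in both libraries, belonged mostly to genes with no given name. Gm42418 had 44.1 in replicate 1 and 26.6 in replicate 2, but in RefSeq it is listed under Rn18s-rs5, a pseudogene related to 18S ribosomal RNA. Ribosomal RNA genes exist in many near-identical copies, so its height is uncertain. Next came Gm15408 with 33.6 and 34.7, whose 2 shared footprints cover 48.8% of the sequence printed above. The clone-named 1700096K18Rik had 31.0 and 32.4. Only 10% of open protein-coding genes lay above 17.9 in replicate 1 and 18.3 in replicate 2, and each of these lincRNA genes did. Tmem250-ps reached 29.7 and 29.5, with its 5' end 15 bp from a start that RefSeq lists as messenger RNA. The remaining genes of the top 10 (9430037G07Rik, 6720427I07Rik, Gm33195, Gm10010, Gm12762 and 1700020I14Rik) lay between 17.8 and 25.6 in replicate 1 and between 22.1 and 26.5 in replicate 2. They stood 3.77 to 79.5 kb from the nearest coding start. Of the 100 highest open lincRNA genes, 47 had a CpG value over 0.6, against 104 of all 809 open ones. Within 2 kb of a RefSeq mRNA start lay 9 of the 100, against 49 of the 809.

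Among genes with a given name, Tmem250-ps had the highest peaks, and the broadly transcribed nuclear RNAs Neat1 and Malat1 came next. Malat1, an abundant RNA of nuclear speckles, had a peak of 16.9 in replicate 1 and 12.1 in replicate 2, centred 8 bp upstream of its 5' end (offset -8 bp). Neat1, the scaffold RNA of the nuclear bodies called paraspeckles, had a pair of tall peaks in each library. One was centred 432 bp upstream (offset -432 bp) with heights of 14.2 and 14.5, and the other lay at its 5' end with 10.5 in replicate 1 and 7.99 in replicate 2. Both genes lie on chromosome 19, and the start of the antisense gene Frmd8os is 145 bp from that of Neat1. Dubr, a lncRNA described in mouse muscle cells, had 8.85 and 8.89. Lockd, a gene downstream of the cell-cycle inhibitor gene Cdkn1b, had 7.58 and 8.20. These Lockd peaks were centred upstream, at offsets of -402 bp in replicate 1 and -422 bp in replicate 2. The peaks over the Lockd 5' end itself had 0.906 and 0.760. Of the other genes among the 12 highest with a given name, Epb41l4aos had 9.54 and 6.31, Smkr-ps 4.62 and 5.97, Zfp469 4.48 and 3.67 and Tbx3os2, beside the developmental regulator Tbx3, 3.85 and 2.62.

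The gene lists held few distant lincRNA genes each, since many well-known lncRNAs are annotated under another type. Of 8 distant lincRNA genes among widely studied lncRNAs, 5 were open, where 15.1% of all distant lincRNA genes were. Besides Malat1 and Neat1 these were Lncpint, an RNA induced by p53 (3.46 in replicate 1 and 3.08 in replicate 2), Pvt1, which neighbours the oncogene Myc (1.83 and 1.40), and Trp53cor1, which lies beside the p53 target Cdkn1a (0.709 and 0.611). Miat, Meg3 and Hotair had no peak at the 5' end in either library. Of 3 hosts of small nucleolar RNAs, whose introns carry RNAs that guide ribosomal RNA modification, Snhg12 had 7.40 and 8.24, Snhg6 had 7.77 and 7.72, and Snhg20 had none.

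Among hosts of microRNAs and the lists of restricted genes, the open ones had heights of 0.243 to 1.68, where the median of all open lincRNA genes was 1.21 in replicate 1 and 1.46 in replicate 2. Of 8 genes listed by symbol as microRNA hosts 4 were open, against 15.1% of all distant lincRNA genes. The open ones were Mir155hg (1.68 in replicate 1 and 1.36 in replicate 2), Mir670hg (0.761 and 1.20), Mir142hg (0.547 and 0.452) and Mir124a-1hg (0.308 and 0.243). Mir17hg, Mir9-3hg, Mir124-2hg and Mirt1 had no peak at the 5' end. Mirt1 was listed for its symbol only and is not named as a host gene. Mir155hg and Mir142hg carry microRNAs known from immune cells and Mir124a-1hg a microRNA known from neurons. The Mir124a-1hg peaks of replicate 1 and replicate 2 did not overlap and lay on opposite sides of its 5' end. The coding genes of blood cells checked here, Ptprc, Cd79a and Hbb-bs, had no peak at the 5' end in either library. None of 3 imprinted genes (H19, Meg3, Mirg) was open, nor was Rmst, an RNA of neural cells. Of 4 genes on a list of lncRNAs linked to development, Lncenc1 (0.598 and 0.641) and Halr1 (0.718 and 0.621) were open and low. The imprinted and developmental lists are too short to be set apart from the 15.1% of all distant lincRNA genes. Of 7 genes known from other tissues 4 were open, again against 15.1% of all distant lincRNA genes: Bvht of heart development (1.40 and 1.20) and Mir155hg, Mir142hg and Mir124a-1hg, given above. By family, 0 of 11 Astx genes on the X chromosome and 2 of 18 Platr genes, a group named for pluripotent cells, were open, counts too small to be set apart from the 15.1% of all distant lincRNA genes.

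Of 3 genes of X inactivation 1 was open, a list too short to be set apart from the 15.1% of all distant lincRNA genes. Xist, the RNA that coats the inactive X of females, had no peak within 500 bp of its 5' end in these male kidneys, and its nearest peaks were 0.907 kb away in replicate 1 and 0.927 kb away in replicate 2. Jpx, an activator of Xist, had 1.84 and 1.54. Ftx had a peak of 0.854 in replicate 2 alone. The gene record's 5' end decided this last call, for at another annotated start of Ftx the peaks reached 7.27 in replicate 1 and 11.7 in replicate 2. Snhg20 likewise had peaks of 5.41 and 6.83 at another start, 0.653 and 0.673 kb from its 5' end, and Mir17hg, host of a microRNA cluster that promotes cell growth, had peaks of 7.67 and 5.95 that began 519 bp from its 5' end, just outside the window. Mir9-3hg had peaks of 1.63 and 0.979 that began 526 bp from its 5' end. Low peaks stood at another annotated start of Meg3 (0.461 in replicate 1 and 0.452 in replicate 2) and of Rmst (0.385 and 0.268), and of Mir124-2hg in replicate 2 alone (0.233). H19 had its nearest peaks 2.10 kb away, at 0.786 and 0.964, and none at any of its annotated starts.

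Open lincRNA genes had more CpG dinucleotides than the others. CpG observed over expected, taken over 1 kb at the 5' end, is the frequency of CpG relative to that of C and G, and is high in CpG islands. Its median was 0.311 at open and 0.192 at other distant lincRNA genes, and 0.207 over all of them against 0.552 for protein-coding genes. The open share of distant lincRNA genes was 3.83% at a value up to 0.1, 6.77% from 0.1 to 0.2, 15.6% from 0.2 to 0.3, 23.2% from 0.3 to 0.4, 33.9% from 0.4 to 0.6, 60.3% from 0.6 to 0.8 and 81.6% (31 of 38) over 0.8. Median heights were 8.20 and 6.24 in the last class and 0.846 and 1.15 in the lowest.

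The gap to protein-coding genes was also present among genes of like CpG content. From 0.1 upward the lincRNA share was lower in every class, with intervals that did not overlap, for instance 33.9% (29.7 to 38.3%) against 74.4% (72.8 to 75.9%) between 0.4 and 0.6. In the lowest class the share was 3.83% for distant lincRNA genes and 4.11% for protein-coding genes. Had each distant lincRNA gene been open as often as protein-coding genes of its CpG class, 1401.1 would have been open (26.1%), where 809 were (15.1%). Only 159 distant lincRNA genes (2.96%) had a value over 0.6, against 45.9% of protein-coding genes, and 543 of the 809 open ones (67.1%) had a value of 0.4 or less, against 12.2% of open protein-coding genes.

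**Figure D4:**
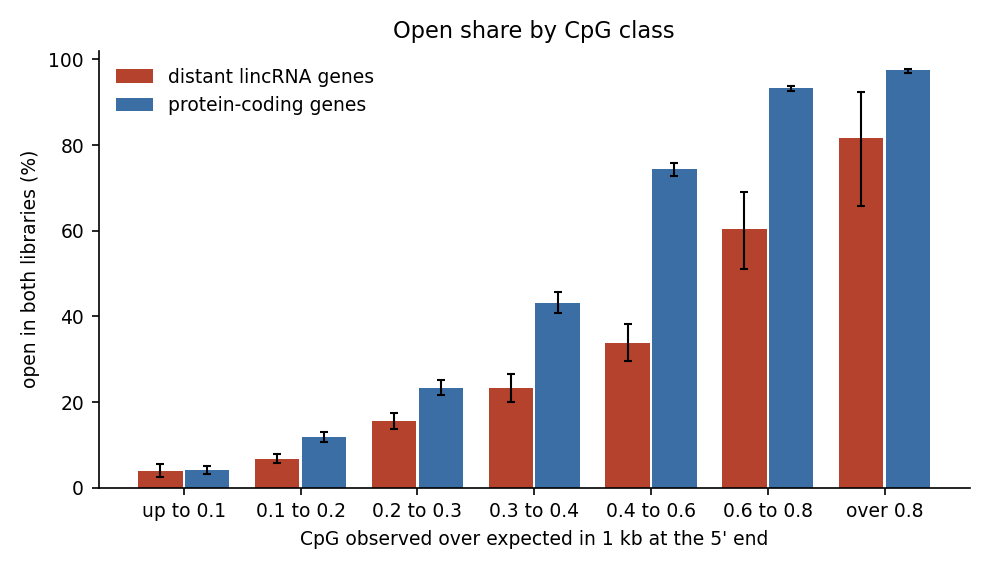
Bars give the percentage open in both libraries by class of CpG observed over expected, for distant lincRNA genes and protein-coding genes, with exact 95% binomial intervals over genes. The share in the highest class is 81.6% for lincRNA genes and 97.4% for protein-coding genes, and the lincRNA bar is the lower one in each class from 0.1 upward.

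High peaks with few CpG were also found. Gm20443, on chromosome 17 at 35.2 kb from the nearest coding start, had a CpG value of 0.309 and heights of 8.32 in replicate 1 and 20.1 in replicate 2. The gene 4930478P22Rik on chromosome 5, with a value of 0.219, had 9.55 and 16.3 at a peak centred 500 bp downstream of its 5' end. Gm26841, with a value of 0.369, had 11.8 and 9.16. A peak of 10.9 and 9.30 was counted for both 1110002J07Rik and Gm26576, whose opposed 5' ends are 44 bp apart. Peaks shared in this way were few: 16 peaks in replicate 1 were the highest of 32 genes together, and 15 in replicate 2 of 30.

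Position along the chromosome went with openness as well. The open share was 21.5% at 2 to 5 kb from the nearest coding start, 21.4% at 5 to 10 kb, 21.2% at 10 to 20 kb and 21.5% at 20 to 50 kb. It was 13.2% at 50 to 100 kb, 11.8% at 100 to 200 kb and 8.32% (104 of 1250) beyond 200 kb, which is still above the 4.29% of genome windows. Median heights at the open genes were 1.94 and 3.02 in the nearest class and 0.705 and 0.845 beyond 200 kb. Distant lincRNA genes whose nearest protein-coding gene was open were open in 608 of 3445 cases (17.6%), against 201 of 1926 (10.4%) where it was closed. The same order held within 50 kb (23.2% against 17.5%) and beyond (13.6% against 6.77%), and at CpG values up to 0.4 (13.8% against 7.48%), while above 0.4 the intervals overlapped (43.4%, 38.8 to 48.2%, against 37.8%, 30.8 to 45.1%). Genes with 5 or more annotated transcripts were open in 25.5% of cases and those with 1 in 14.2%, while single-exon genes (17.1%) had an interval, 12.8 to 22.2%, that holds the share over all distant lincRNA genes.

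Windows rich in repeats and chromosome Y held few open genes. The open share was lower with a higher share of soft-masked (repeat) bases in that 1 kb. It was 24.6% at up to 10% masked and 0.378% (3 of 793) at over 70%. Protein-coding genes showed the same order, with 74.7% at up to 10% masked and 1.55% at over 70%. At 50 to 70% masked the shares were 4.51% for distant lincRNA genes and 4.58% for protein-coding genes. Of 548 distant lincRNA genes on chromosome Y none was open. That allows a share of up to 0.547% when 3 counts are taken as the limit of a count of 0. The upper end of the exact 2-sided 95% interval is 0.671%. On Y, 1 gene had a peak in replicate 1 and 1 in replicate 2. There 544 of the 548 genes were over 70% masked, with a median of 100% against 17.4% on other chromosomes, and 4 of 183 protein-coding genes on Y were open. The part of repeat content in the count of 0 was not tested. Without chromosome Y, 16.8% of 4823 distant lincRNA genes were open, and over 70% masked 1.20% were. On the X chromosome 9 of 92 were open (9.78%, 4.57 to 17.8%), an interval that holds the 15.1% of all distant lincRNA genes. By kind of name, genes with a given name were open in 34 of 105 cases (32.4%, 23.6 to 42.2%), those named by an accession in 72 of 417 (17.3%, 13.8 to 21.2%), those with a Gm number in 524 of 3909 (13.4%, 12.4 to 14.5%) and Rik clones in 179 of 940 (16.6 to 21.7%).

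Some distant lincRNA genes lie at coding starts of another annotation. RefSeq lists the start of a messenger RNA within 2 kb of 127 of them, of which 49 were open (38.6%), against 14.5% of the other 5244. Tmem250-ps is one. Another is Tmem61, whose nearest coding gene is Bsnd, a chloride channel subunit of the kidney, with 1.24 in replicate 1 and 1.36 in replicate 2 and a RefSeq mRNA start at the same base.

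Footprints were found at most open lincRNA genes. Of the 809, 683 (84.4%, 81.7 to 86.9%) had a footprint in a peak of the window in both libraries, against 95.5% of open protein-coding genes, and 17 had none in either. Counts per gene averaged 2.40 in replicate 1 and 3.91 in replicate 2, against 4.44 and 5.80 at protein-coding genes. Of the 1941 footprints of replicate 1 at these genes, 1538 (79.2%) overlapped one of replicate 2, and 595 genes (73.5%) had at least 1 such shared footprint. The genes with the most were 6720427I07Rik, 9530027J09Rik and the pair Gm20109 and E230001N04Rik, with 11 each, and Neat1 with 10. The genes of the pair overlap on opposite strands. These are counts of replicate 1 footprints, and the replicate 2 footprint that each overlaps need not lie in a peak. In replicate 2 the peaks of the window held 8 footprints at the pair and 5 at 9530027J09Rik.

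The presence of a footprint went with peak height in both gene classes. At heights of 1 to 2 in replicate 1, 161 of 169 open lincRNA genes (95.3%, 90.9 to 97.9%) had a footprint, against 94.4% of protein-coding genes, and under 0.5 it was 42.5% against 48.5%. The mean count stayed lower at lincRNA genes in every height class of both libraries. Over a height of 8 it was 4.94 in replicate 1 and 5.38 in replicate 2, against 5.59 and 6.40 at protein-coding genes. Footprints of both libraries covered 14.1% of the bases of the highest lincRNA peaks (central 150 bp of the replicate 2 peak), 11.0% in distal peaks and 24.5% at protein-coding genes. At CpG values up to 0.4 the shares were close, at 11.4% for lincRNA genes and 12.3% for protein-coding genes.

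In motif content the peaks of open lincRNA genes lay between distal sites and coding promoters. Short words known for transcription factors were searched on both strands in the central 150 bp of the highest replicate 2 peak. The same was done for 67483 distal peaks, which are peaks of replicate 2 that overlap one of replicate 1 and lie over 2 kb from every annotated start. The SP/KLF word GGGCGG was present in 19.7% of the lincRNA peaks, against 7.66% of distal peaks and 56.4% of coding ones. The ETS word CCGGAAG was in 5.19%, against 1.66% and 13.0%, and the NRF1 consensus in 0.989%, against 0.252% and 8.39%. These are words typical of CpG-rich promoters, and at lincRNA genes with a CpG value over 0.4 the SP/KLF share was 39.1%, against 10.1% at those up to 0.4. The AP-1 word TGANTCA, common in enhancers, was in 7.29% of lincRNA peaks, against 5.99% of distal and 1.85% of coding ones. For every other word searched that had a match at lincRNA genes, the lincRNA share lay between the distal and the coding share.

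Of the words searched, that of CTCF, a factor that organises chromatin loops, was the one most often inside shared footprints at lincRNA genes. The CTCF consensus stood in 41 of the 809 lincRNA peaks (5.07%), against 7.40% of distal peaks and 0.940% of coding ones, and also in 6.08% of the lincRNA peaks and 2.43% of the coding peaks with a CpG value up to 0.4. At least 50% of the bases lay in footprints of both libraries in 36 of the 41 matches (87.8%, 73.8 to 95.9%), close to 85.3% in distal peaks and 86.6% at coding genes. At lincRNA genes AP-1 words were covered to that extent in 3 of 67 cases (4.48%, against 5.52% in distal and 9.84% in coding peaks) and SP/KLF words in 93 of 227 (41.0%). The 41 genes had median heights of 2.89 in replicate 1 and 3.83 in replicate 2, against 1.15 and 1.39 at the other 768. Among them were 4632415L05Rik (12.8 and 16.8), 4930478P22Rik, 1700127F24Rik and Gm26841. In the 4930478P22Rik sequence printed above, the match spans bases 42 to 53 and all 12 of its bases are in shared footprints. The words were counted separately and may overlap, and a match describes letters and not binding.

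**Figure D5:**
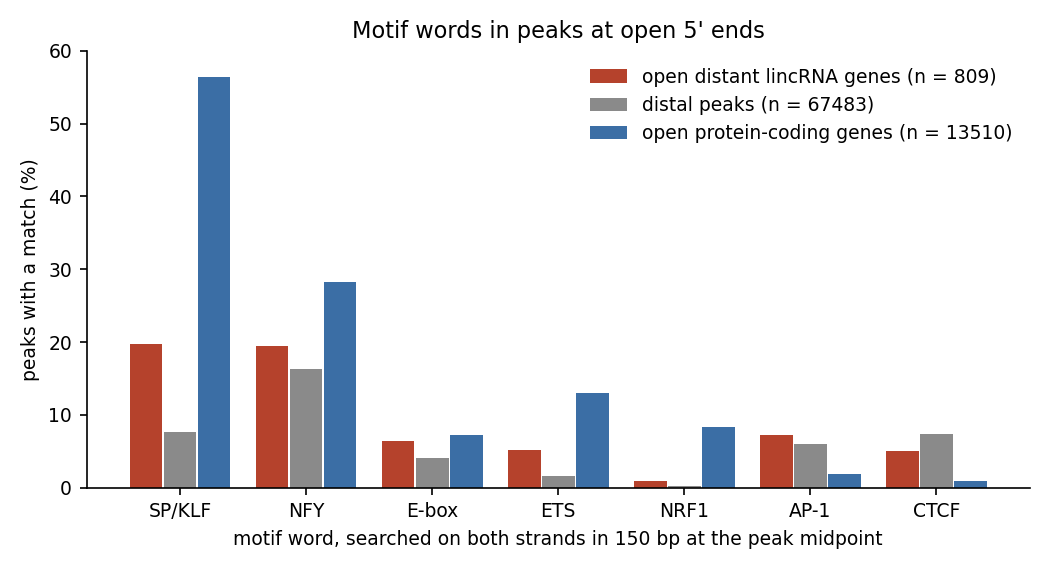
Bars give the percentage of peaks whose central 150 bp hold each motif word, for 809 open distant lincRNA genes, 67483 distal peaks and 13510 open protein-coding genes. For SP/KLF, ETS and NRF1 the lincRNA bar (19.7, 5.19 and 0.989%) lies between the distal and the coding bar, and for CTCF (5.07%) between coding genes (0.940%) and distal peaks (7.40%).

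In the other printed sequences, shared footprints covered all 6 bases of an SP/KLF word in Dubr (bases 16 to 21). They covered 5 of 6 in Snhg6 (bases 21 to 26) and 3 of 6 in Neat1 (bases 43 to 48). Of an E-box word (CACGTG) in Gm15408, at bases 39 to 44, they covered 1 of 6. Snhg6 also held a pair of ETS words, of which the one at bases 87 to 93 was covered whole and the one at bases 43 to 49 not at all. Promoters of 300 bp (250 bp before and 50 bp from the 5' end on) were searched as well. GGGCGG was in 21.8% of open and 5.35% of other distant lincRNA genes. Among protein-coding genes it was in 62.3% of open ones and 43.0% of all. The TATA word TATAAA was in 11.4% of open and 17.1% of other distant lincRNA genes. Its share was 7.24% at open protein-coding genes and 12.6% at all of them. The HNF1 consensus, for a factor of kidney tubules, had no match in any of these promoters, which says only that those exact letters were not in these windows.

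Few lincRNA 5' ends without a peak held a base of the deposited list of false discovery rates. That list holds only bases with a rate under 0.05, so weaker signal could not be seen in it. It touched the window of 67 of 4503 distant lincRNA genes without a peak in replicate 1 (1.49%) and 64 of 4290 in replicate 2 (1.49%). In both libraries at once it did so for 11 of the 4231 without any peak (0.260%), against 0.821% of protein-coding genes without one.

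The libraries differed in yield, with 177001 peaks and 493495 footprints in replicate 2 and 125393 peaks and 237471 footprints in replicate 1. Absolute depth is not known from the lists. Kidney genes had peaks at the 5' end in both libraries for Lrp2 and Cubn of the proximal tubule and for Umod and Slc12a1 of the loop of Henle, and the replicate 2 list alone had them for Aqp2 of the collecting duct and Nphs1 of podocytes. Slc34a1 had none, and neither had Alb of liver nor Cyp11b1 of the adrenal cortex.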

How the data were processed

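Kidney DNase-seq of 2 libraries was analysed from lists deposited by the authors on mm10, per the labels. The aligner and both callers were not given in the sources used here. Each deposited peak signal is a height, whose low values rise in steps as reads divided by depth would, so absolute depth is unknown. Peaks were derived per library and not from pooled reads, per the file descriptions. Footprints carry 1 deposited false discovery rate (q-value) of 0.01, and rates per base are deposited only below 0.05. The mice carry CAST/EiJ alleles, mm10 does not, and whether alignment allowed for this is not given, so peaks at strain variants could be lowered.

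The longer peak list of each library was overlapped (at least 1 bp) with windows of 500 bp around GENCODE M21 gene 5' ends, and the highest peak was taken. CpG, repeats and motif words came from GRCm38.p6. Shares have exact (Clopper-Pearson) 95% intervals. No tests were run, as there was 1 group. Alternatives changed the peak list, libraries, window, gene starts and distance rule. Python 3.11.15, pandas 2.3.3, numpy 2.4.6, scipy 1.17.1 and matplotlib 3.10.9 were used, and the calling functions were tested on simulated data. Genes, lists and alternatives were chosen with earlier results of these data known. Genes named are the 10 highest, the 12 highest with a given name, all members of the gene lists, those with the most shared footprints, and, chosen after values were seen, the highest with low CpG or a CTCF match. A kidney marker gene that was also looked up is not reported here.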

Additional observations from a re-analysis of the deposited data

How the results depend on the processing

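Of 65 values recomputed under alternatives, 33 shares and heights stayed within the interval or spread of the reported value and 24 moved beyond it. The stricter peak list gave 11.4% of distant lincRNA genes open and 58.1% of protein-coding genes, a median height of 1.97 and footprints at 94.1%. With a single library the lincRNA share was 16.2 to 20.1%, the coding share 62.5 to 64.7%, the median height 0.944 to 1.10 and the footprint share 82.1 to 92.6%. Windows of 250 bp, 1 kb and 2 kb gave 12.3, 19.2 and 25.0% for lincRNA genes and 58.8, 64.1 and 67.2% for protein-coding genes. Counting any transcript start gave 16.3% and 66.9%. The lincRNA share was 9.20% with only the upper 50% of heights, 16.3% over all noncoding types, and, as alternatives chosen after seeing the data, 16.8% without chromosome Y and 18.3% without genes over 50% soft-masked. A footprint anywhere in the window gave 81.7%. The other 8 values are the number of genes under the rule, which has no interval or spread. It ranged from 4830 to 7798, within 1.5 times the reported 5371. In every alternative run for both classes the lincRNA share stayed below the coding share. No paired analysis was possible because the study has 1 group. Limits: depth is unknown, whole tissue mixes cell types, and a gene record's 5' end need not be the start used in kidney.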
